A study of Rattus norvegicus with 12 samples.

Results

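Rab GTPases are small GTP-binding proteins of the Ras superfamily that give each membrane compartment of the cell its identity. Transcript levels of 55 Rab genes were read by 86 of 45598 probes on one-colour microarrays of N27 cells, an immortalised rat line of dopaminergic origin. The members were all array probes, controls aside, whose gene name was Rab followed by a number and at most a letter and a digit. They were sorted by number into an endosomal and lysosomal group (Rab5, 7, 9, 11, 27, 32 and 38, 13 genes), a secretory group (Rab1, 2, 3, 6 and 8, 12 genes) and 30 others. The probe named Rab7l1 reads the gene now called Rab29 and was counted with the others. The same pattern finds 58 rat genes in the RefSeq annotation, of which Rab37, Rab42 and Rab44 had no probe under these names. Rab39b is not analysed here.

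A Rab cycles between a GTP-bound form on a membrane and a GDP-bound form held in the cytosol. Exchange factors load GTP, GTPase-activating proteins end the active state, and the prenylated Rab then returns to the cytosol until its next round. In its active form a Rab recruits effectors such as motors, tethers and lipid transfer proteins, and in neurons these steps carry cargo through the Golgi, the axon, the synapse and the lysosome.

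The cells of 6 samples had been exposed to 25 µM fipronil, a phenylpyrazole insecticide that blocks GABA-gated chloride channels, for 24 h, and 6 control samples were untreated. Total RNA was labelled with Cy3. No vehicle is stated for the control cells, and no label says that samples came from separate cultures. The p-values therefore set a difference only against the scatter among these samples within groups, and that scatter may be technical. The title puts the question of what effects the pesticide has in these cells. Of 11 markers of dopaminergic neurons 2 were measurable, that is, well above background on at least 6 arrays. They include Th, the rate-limiting enzyme of dopamine synthesis, which stood well above background on all 12 arrays, while Slc6a3, the dopamine transporter, did so on 0. Measurable too were 4 of 10 neuronal, 2 of 7 oligodendrocyte, 3 of 7 microglia and leukocyte, 2 of 6 endothelial and 2 of 5 pigment cell markers. The median difference, fipronil minus control, was -0.66 for the 2 dopaminergic markers, both at an unadjusted p under 0.05 but not past the adjusted threshold in limma. It was 0.52 for the 4 neuronal markers, of which 1, Ncam1, rose. On slide 1, the only slide with both treatments, the dopaminergic median was -0.44, with 1 of the 2 markers above 0. The neuronal median there was 0.62, with all 4 above 0. The part of these markers in the results below was not tested. None of 6 astrocyte markers were measurable, and their summed level relative to the array's 75th percentile was 0.055 to 0.123 in control and 0.0751 to 0.162 in fipronil arrays.

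By their barcodes the arrays lay on 3 slides that nearly coincide with treatment. Only slide 1 carried both treatments, with 2 controls (replicates 2 and 3) and 2 fipronil arrays (replicates 7 and 8). The 4 arrays of slide 2 were all controls and the 4 of slide 3 all fipronil. The 75th percentile of the signal ran from 379 to 472 on slide 2 and from 111 to 140 on slide 3. It was 269 and 279 in the controls and 245 and 246 in the fipronil arrays of slide 1. The share of spots well above background was 47.4% to 50.02% on slide 2, 40.8% to 42.5% on slide 3 and 44.5% to 46.8% on slide 1. Away from slide 1, slide and treatment cannot be told apart. All values below are log2 signals minus the 75th percentile of their own array, called levels here, and a difference is fipronil minus control. Levels of different genes come from different probes, so the size of a level or of a ratio between 2 genes says nothing of their relative abundance.

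The probes of Rab6b, Rab6a, Rab1b and Rab31 are shown because the results turn on them. They held none of the 3 conserved coding boxes searched, which are named further on, and their place in the transcript was not determined. Their first 30 bases of 60 are given here, 5′ to 3′, as the array file lists them, with no capitals because no box was found in them.
Rab6b: cagaaggcacagtggccatattgactttac
Rab6a: tccctgtggcaggtcagagaaatggaaata
Rab1b: gaaaaggatgaaaaaataaatttccactgg
Rab31: gtccgagctcatttgtatcagtcgcttttg

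In ungapped alignment the Rab6a and Rab6b probes shared at most 20 identical bases of 60, so the pair differs along most of its length. Among the 7 pairs of tested paralogs the Rab11a and Rab11b probes were the most alike, with 36. Other probes carry, in an open frame, a box conserved among Rabs. The 3 shown next were chosen because another probe of the same gene gave a different value. Capitals mark the codons of the box: the guanine-base contact for Rab22a and Rab14, and the switch II start for Rab18.
Rab22a: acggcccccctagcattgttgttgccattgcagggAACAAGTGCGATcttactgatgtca
Rab14: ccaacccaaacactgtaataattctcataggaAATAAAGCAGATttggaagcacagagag
Rab18: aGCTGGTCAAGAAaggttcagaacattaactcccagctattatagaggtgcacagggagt

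Any of 3 boxes (guanine-base contact, switch II start, or the ETSA box that also touches the guanine) occurred in an open frame of 7 of the 86 Rab probes (8.14%) and of 149 of all 45598 probes (0.327%). The search read the 3 frames of the listed strand only. A box match describes the probe and says nothing of the transcript's regulation.

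Of the 55 genes, 40 passed the filter on dim probes (well above background on at least 6 of 12 arrays): 8 endosomal and lysosomal, 9 secretory and 23 others. Of these, 36 stood well above background on all 12 arrays. The other 15 were not tested. They include Rab3a, Rab3b and Rab3c, Rabs of synaptic and other regulated vesicles, and Rab5a, an early endosome Rab. Rab7b, Rab9b, Rab27b and Rab38 of the lysosomal and pigment granule pathways were also too dim, as were Rab17, Rab19, Rab25, Rab33a, Rab36, Rab39a and Rab40c. No probe of 10 of the 15 was well above background on any array. Their signals are no measure of expression in either group. Of all probes never well above background, 23959 of 24319 were higher in fipronil arrays, with a median difference of 0.94 over 12 arrays and 0.13 on slide 1. The 19 such Rab probes were all higher too, by 0.61 to 1.26 (median 0.91) over 12 arrays, with a median of 0.13 on slide 1.

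In the limma comparison of all 12 arrays, 3 Rab genes passed the adjusted threshold of 0.05. Rab6b and Rab31 rose and Rab1a fell. Of all 13542 genes tested, 2.24% passed as higher and 2.77% as lower, and 2 and 1 of 40 are near that background. The arrays read RNA of whole cultures, so fewer cells expressing a gene and less RNA per cell cannot be told apart. At an unadjusted p under 0.05 there were 11 of 40 Rab genes (27.5%) and 25.03% of all genes. The 11 include Rab30, which passed the filter on dim probes only through the control arrays. The median difference of the 40 was 0.0062, with 20 above 0 and 20 below, and that of all genes was -0.077. Quantile normalization and the authors' deposited table each gave 2 higher and 0 lower Rab genes, median scaling gave 1 and 3, and a normexp background followed by quantile normalization gave 2 and 3. Leaving out 1 array changed the count. Rab6b alone passed when the array left out was fipronil replicate 1 or any control except replicate 5, while 6 genes passed without fipronil replicate 8. The fits with Rab6b alone also called fewer of all genes than the 303 higher and 375 lower over 12 arrays. Without fipronil replicate 8 the calls over all 13542 genes rose to 763 higher and 1259 lower. In these fits the Rab count therefore moved with that of all genes.

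**Figure D1:**
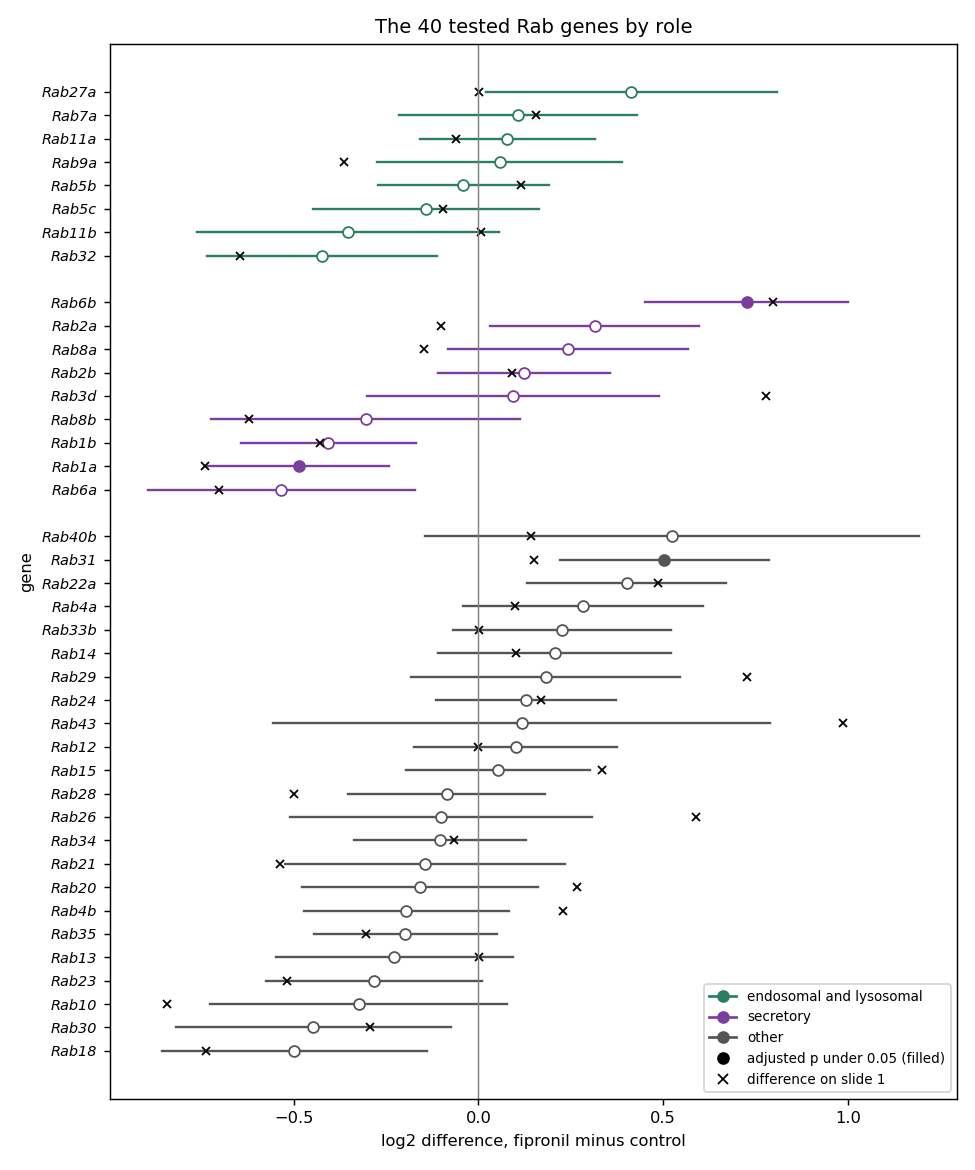
Log2 difference (fipronil minus control) of the 40 tested Rab genes by role, with 95% confidence intervals from limma over 12 arrays. Filled circles are the 3 genes with adjusted p under 0.05 and crosses are the differences on slide 1. Rab6b lies farthest to the right at 0.73 and Rab6a farthest to the left at -0.53.

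Within slide 1 (limma with slide as a fixed block) 0 of 40 Rab genes passed, against 0.0886% of all genes, and 14 of 40 had an unadjusted p under 0.05, against 2578 of all 13542 genes. On slides 2 and 3 alone, a comparison added after the data were seen, 6 of 40 passed, against 22.5% of all genes. Those were Rab2a, Rab6b, Rab8a and Rab31, which were higher, and Rab4b and Rab11b, which were lower. The 2 sets of slides share no array. The direction was the same in both for 24 of 40 Rab genes (60%) and for 5933 of all genes (43.8%). It was shared by 6 of 9 secretory, 4 of 8 endosomal and lysosomal and 14 of 23 other Rabs.

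**Figure D2:**
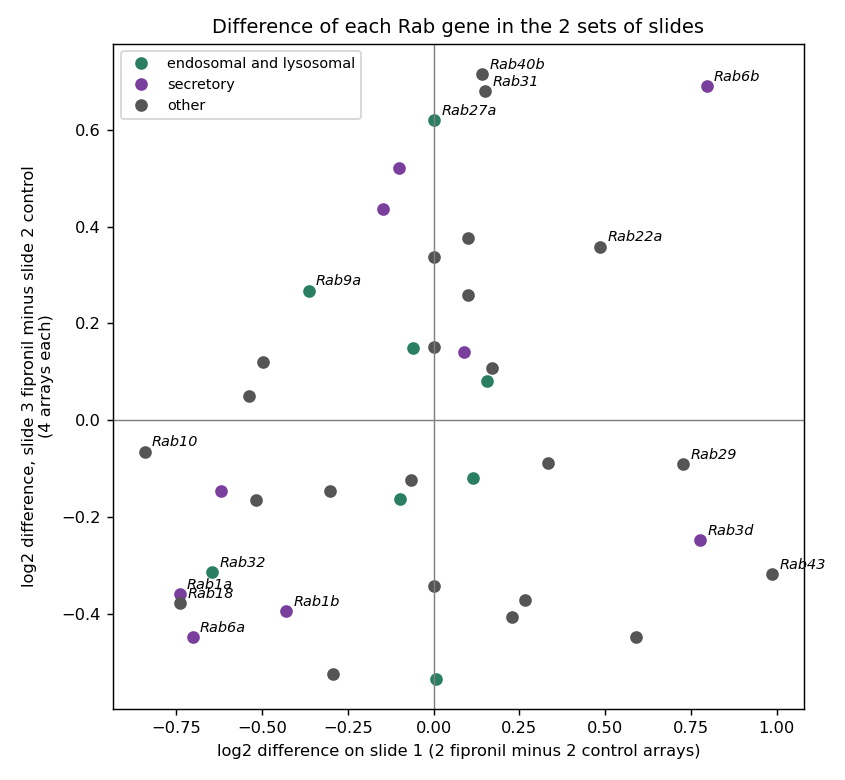
Each point is 1 of the 40 tested Rab genes, with its log2 difference on slide 1 (2 arrays of each treatment) on the horizontal axis and that of slide 3 fipronil against slide 2 control arrays (4 each) on the vertical axis. Rab6b is high on both axes (0.80 and 0.69), Rab1a and Rab6a are low on both, and Rab3d, Rab29 and Rab43 are above 0 on slide 1 and below 0 between slides 2 and 3.

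Among the secretory Rabs, the Golgi pair Rab6b and Rab6a had differences of opposite sign. Rab6b, the form known for its expression in brain, lies on rat chromosome 8 (RefSeq, GRCr8) and rose. Its level was -2.66, -2.34 and -2.26 (lowest, median, highest) in control arrays and -2.00, -1.68 and -1.27 in fipronil arrays. The lowest fipronil array lay above the highest control array. The mean rose from -2.39 ± 0.14 to -1.67 ± 0.24 (SD, n = 6 each), a difference of 0.73 ± 0.13 (SE), or 1.65-fold, with an adjusted p of 0.0135 in limma. On slide 1 the controls read -2.66 and -2.26 and the fipronil arrays -1.61 and -1.72. The slide 1 difference was 0.80 (95% confidence interval 0.31 to 1.28, adjusted p 0.128 in limma). The Rab6b probe was printed as 10 spots per array, whose SD within an array had a median of 0.18. This is spot noise and does not cover the spread between samples or slides. Rab6b kept an adjusted p under 0.05 in 12 of 12 fits that left out 1 array and under all 5 other scalings. Its difference under those scalings ran from 0.34, with normexp and quantile normalization, to 0.72.

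Rab6a, the widely expressed form on chromosome 1 that drives traffic from the Golgi back to the endoplasmic reticulum, did not pass. Its control levels were -0.52, -0.20 and 0.19, and its fipronil levels -1.21, -0.59 and -0.43. The groups overlapped, and its call depended on the scaling: it passed with median scaling (adjusted p 0.0451 in limma) and with both normexp settings (0.0174 and 0.0304). The difference was -0.53 ± 0.17 (SE; adjusted p 0.0748 in limma) over 12 arrays and -0.70 on slide 1. The log2 ratio of Rab6b to Rab6a on the same array, which cancels any constant subtracted from an array, was higher by 1.26 in fipronil arrays, by 1.5 on slide 1 and by 1.14 between slides 2 and 3. With a normexp background it was higher by 1.08 when scaled to the 75th percentile and by 0.78 after quantile normalization. It ran from -2.85 to -1.81 in control and from -1.35 to -0.061 in fipronil arrays. Of the 7 paralog pairs with both members tested, this was the only one whose ratio did not overlap between groups. The share over all pairs of genes was not computed. Rab6b had the highest and Rab6a the lowest difference of the 40 tested Rab genes, so the ratio adds no separate support.

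Rab1a and Rab1b, which act between the endoplasmic reticulum and the Golgi, both had lower levels in every fipronil array than in any control array. For Rab1a, on chromosome 14, the control levels were 3.0, 3.12 and 3.44 and the fipronil levels 2.47, 2.67 and 2.92. Rab1a fell by 0.49 ± 0.11 (SE) on the log2 scale, a 1.40-fold difference, with an adjusted p of 0.0310 in limma. On slide 1 its difference was -0.74, from 3.44 and 3.25 in controls to 2.65 and 2.55 in fipronil arrays. Rab1a passed in 5 of 12 fits that left out 1 array, with adjusted p from 0.026 to 0.070. It missed the threshold with quantile normalization (adjusted p 0.0604 in limma) and in the deposited table (0.0599). A second Rab1a probe differed by -0.11 ± 0.22 (SE) over 12 arrays and by -0.90 on slide 1, and with the probes averaged the adjusted p was 0.205 in limma. Rab1b levels were 1.86, 2.03 and 2.22 in control and 1.3, 1.7 and 1.75 in fipronil arrays. Its difference of -0.41 ± 0.11 (SE) missed the threshold (adjusted p 0.0509 in limma) and was -0.43 on slide 1.

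Genes of the Rab1 family have many near copies. The annotation lists 6 pseudogenes named after Rab1a and 1 after Rab1b. The array file places the Rab1b probes on chromosome X, where the annotation has that pseudogene, while the Rab1b gene is on chromosome 1. Which of them the Rab1b probe reads is uncertain, and a share of the Rab1a signal may come from its copies. Single pseudogenes are also listed for Rab5c, Rab7a, Rab11a, Rab12 and Rab18.

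**Figure D3:**
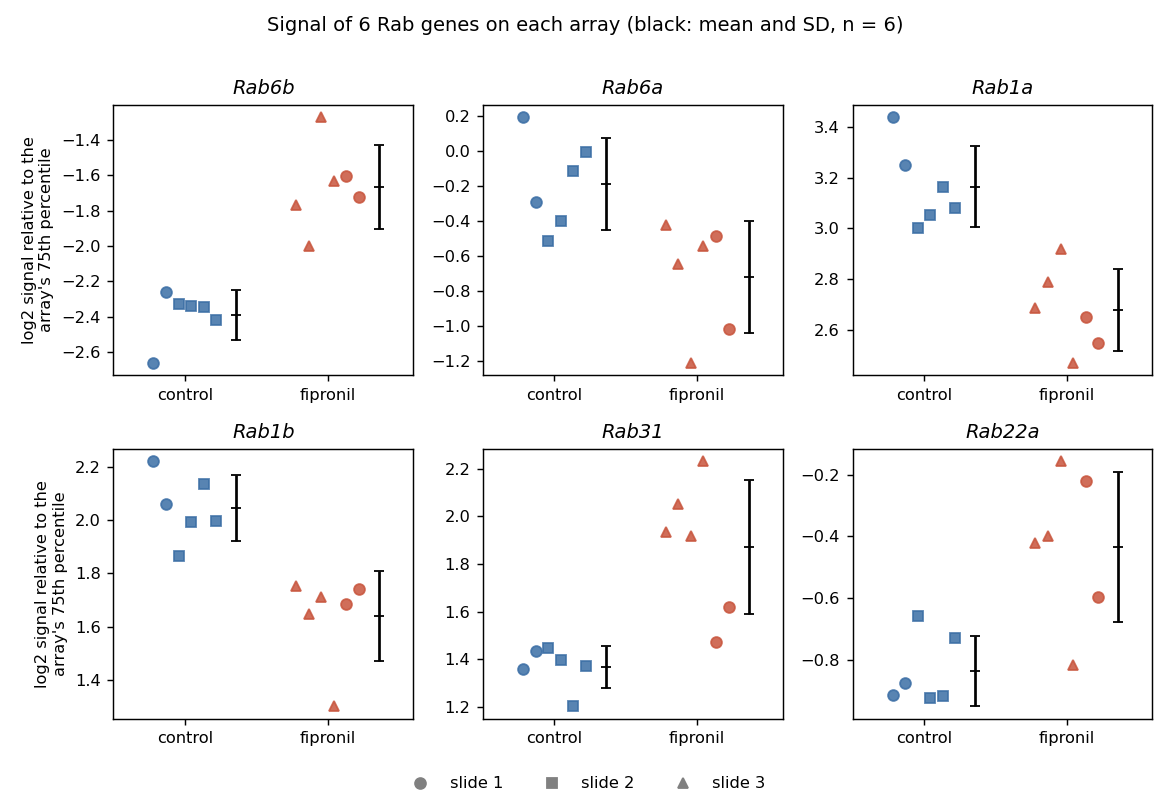
Level (log2 signal minus the array's 75th percentile) of 6 Rab genes on each of the 12 arrays, by group, with slide marked by symbol and the mean and SD (n = 6) in black; each panel has its own vertical range. Rab6b and Rab31 are higher, and Rab1a and Rab1b lower, on every fipronil array, while Rab6a and Rab22a overlap between groups.

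The other secretory Rabs did not pass. Rab2a, of the compartment between the endoplasmic reticulum and the Golgi, read 1.59, 1.93 and 2.19 in control and 2.03, 2.23 and 2.40 in fipronil arrays, a difference of 0.31 ± 0.13 (SE). On slide 1 it was -0.10, so its direction turned. Rab8a, which carries cargo from the Golgi to the plasma membrane, differed by 0.24 over 12 arrays and by -0.15 on slide 1, and its paralog Rab8b by -0.30 and -0.62. Rab3d, a Rab of regulated secretion, differed by 0.094 over 12 arrays, where controls ran from -2.16 to -1.41 and fipronil arrays from -2.11 to -1.16. On slide 1 Rab3d read -2.16 and -1.78 in controls and -1.16 and -1.23 in fipronil arrays. That difference was 0.78 (adjusted p 0.128 in limma with slide as a fixed block, a fit to all 12 arrays). Rab2b differed by 0.12.

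Among all 40, 4 genes (10%) did not overlap between groups, against 4.18% of all genes: Rab6b, Rab1a and Rab1b of the secretory group, and Rab31. The secretory group had 5 of 9 members at an unadjusted p under 0.05, namely Rab6b and Rab2a higher and Rab1a, Rab1b and Rab6a lower. The share over all genes was 25.03%. The median difference of the group was 0.094 over 12 arrays and -0.15 on slide 1, where 6 of 9 members were below 0.

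No endosomal or lysosomal Rab passed in limma, and 2 of 8 had an unadjusted p under 0.05. Rab32, which acts in the biogenesis of lysosome-related organelles, was the lowest of them. It read -0.27, -0.073 and 0.10 in control and -0.92, -0.45 and -0.11 in fipronil arrays, groups that overlapped. Its difference was -0.42 ± 0.14 (SE; adjusted p 0.0954 in limma), and -0.64 on slide 1. Rab27a, which docks secretory lysosomes at the plasma membrane, read -4.04, -3.90 and -3.52 in control and -3.94, -3.58 and -2.77 in fipronil arrays. Its difference was 0.41 ± 0.18 (SE; adjusted p 0.181 in limma), but 0.0019 on slide 1, and its signal was well above background on 4 of 6 fipronil arrays only. Dim probes ran higher on slide 3, as given above, and the part of this in the Rab27a value was not tested.

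The Rabs that mark the successive endosomes lay near 0. Rab5b and Rab5c, of early endosomes, differed by -0.041 (95% confidence interval -0.27 to 0.19) and -0.14 (-0.45 to 0.16). Rab7a, the Rab of late endosomes and lysosomes, read -0.17, 0.23 and 0.55 in control and 0.06, 0.26 and 0.72 in fipronil arrays, a difference of 0.11 (-0.22 to 0.43). Rab9a, which returns receptors from late endosomes to the Golgi, differed by 0.057 (-0.28 to 0.39) and by -0.36 on slide 1. All 4 intervals include 0. For the recycling pair, Rab11a differed by 0.079 (-0.16 to 0.32) and Rab11b by -0.35 (-0.76 to 0.055). The Rab11a value depends on the probe. A second probe, well above background on all 12 arrays, gave -0.43, and -0.67 on slide 1 against -0.061 for the first. Rab11b read -1.99, -1.82 and -1.55 in control and -2.62, -2.32 and -1.32 in fipronil arrays. On slide 1 it differed by 0.0072. Its highest fipronil value came from replicate 8 on slide 1, and without that array its adjusted p was 0.021 in limma. Leaving out that array also raised the calls over all genes, from 303 higher and 375 lower to 763 and 1259.

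Among the 23 other Rabs, Rab31 rose. Rab31, which moves cargo between the trans-Golgi network and endosomes, lies on chromosome 9. It read 1.20, 1.38 and 1.45 in control and 1.47, 1.93 and 2.23 in fipronil arrays, and the groups did not overlap. Its difference was 0.50 ± 0.13 (SE), or 1.42-fold, with an adjusted p of 0.0450 in limma. On slide 1 the controls read 1.36 and 1.43 and the fipronil arrays 1.47 and 1.62, a difference of 0.15, while between slides 2 and 3 it was 0.68. Rab31 passed in 2 of 12 fits that left out 1 array, those leaving out either fipronil array of slide 1. Over the 12 fits the adjusted p ran from 0.020 to 0.099 in limma. It missed the threshold with median scaling (adjusted p 0.0845 in limma), and with normexp scaled to the 75th percentile its difference was 0.32.

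Rab22a, its close relative on early endosomes, did not pass. Rab22a read -0.92, -0.89 and -0.66 in control and -0.82, -0.41 and -0.16 in fipronil arrays, a difference of 0.40 ± 0.12 (SE; adjusted p 0.0729 in limma) and of 0.49 on slide 1. The groups overlapped through 1 fipronil array. It passed in the 2 fits that dropped fipronil replicate 4 or 8, with a lowest adjusted p of 0.044 in limma. Rab18, of the endoplasmic reticulum and lipid droplets, read 1.35, 1.86 and 2.22 in control and 1.15, 1.28 and 1.64 in fipronil arrays. It differed by -0.50 ± 0.17 (SE; adjusted p 0.0911 in limma) and by -0.74 on slide 1. Rab23, an inhibitor of Hedgehog signalling, differed by -0.28 and by -0.52 on slide 1.

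Rab30, a Golgi Rab, was well above background on all 6 control arrays and on 0 fipronil arrays, so its fipronil level has only a bound. Where its signal lay below the lowest one called well above background on an array, that lowest signal took its place. The fipronil mean was then 0.086 above the control mean on the log2 scale. These values therefore set no lower bound on a higher control level. The fit gave -0.45 with an adjusted p of 0.132 in limma, but Rab30 passed the filter only through the control arrays, where it was high, so neither this p nor the direction is read as support for a difference. Its measured means were -3.85 ± 0.13 and -4.30 ± 0.41 (SD, n = 6 each). Rab40b and Rab43, which were also dim on some fipronil arrays, had wide intervals, -0.14 to 1.19 and -0.56 to 0.79.

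Several Rabs differed mainly on slide 1. Rab29, which recruits the kinase Lrrk2 to membranes and lies in a Parkinson risk locus, read -0.96 and -0.66 in the slide 1 controls and 0.06 and -0.23 in the fipronil arrays. That difference was 0.73 (95% confidence interval 0.26 to 1.19; adjusted p 0.132 in limma), but over 12 arrays it was 0.18, and between slides 2 and 3 it was -0.091. Rab10, which acts in polarised exocytosis, differed by -0.84 on slide 1 and by -0.32 over 12 arrays. A second, dimmer Rab10 probe that passed the filter was also lower over 12 arrays, by -0.60, but differed by only 0.0061 on slide 1. Rab43, read by a dim probe, differed by 0.99 on slide 1 (95% confidence interval -0.053 to 2.03) and by 0.12 over 12 arrays. Rab26 differed by 0.59 on slide 1 and by -0.10 over 12 arrays. Rab28 was lower on slide 1, by -0.50 (95% confidence interval -0.84 to -0.15), against -0.085 over 12 arrays. Rab21 differed by -0.54 and -0.14. The rest of the 23 except Rab40b (0.52) and Rab4a (0.28, adjusted p 0.258 in limma) had differences over 12 arrays between -0.23 and 0.23, among them Rab12, Rab14, Rab15, Rab34 and Rab35.

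Of the 40 tested genes, 14 were read by more than 1 probe that passed the filter, and in 7 of them all such probes gave the same direction. Rab18 had 4 such probes, with differences of -0.50, -0.16, -0.10 and 0.65. The last is the coding probe with the switch II box shown above, and on slide 1 all 4 were negative, from -0.74 to -0.38. The coding probe of Rab22a gave 0.40 and a probe farther downstream -0.30. On slide 1 they gave 0.49 and -0.38, so there the disagreement was the same. For Rab14 the coding probe gave 0.49 and the others 0.21 and 0.038, and for Rab11a the pair gave 0.079 and -0.43. In the other 7 genes the sign of the difference depends on the probe.

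Position along the gene was compared for 12 Rab genes with probes placed on 1 chromosome and strand. The probe nearest the 5′ end gave the higher difference in 9 of 12 (75%), by a median of 0.27, and 0.12 on slide 1. Among 1999 genes with such probes the share was 52.1%, with a median of 0.022, and 0.090 on slide 1. The upstream probe was the dimmer of the pair in 66.7% of Rab genes and 67.9% of all these genes.

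**Figure D4:**
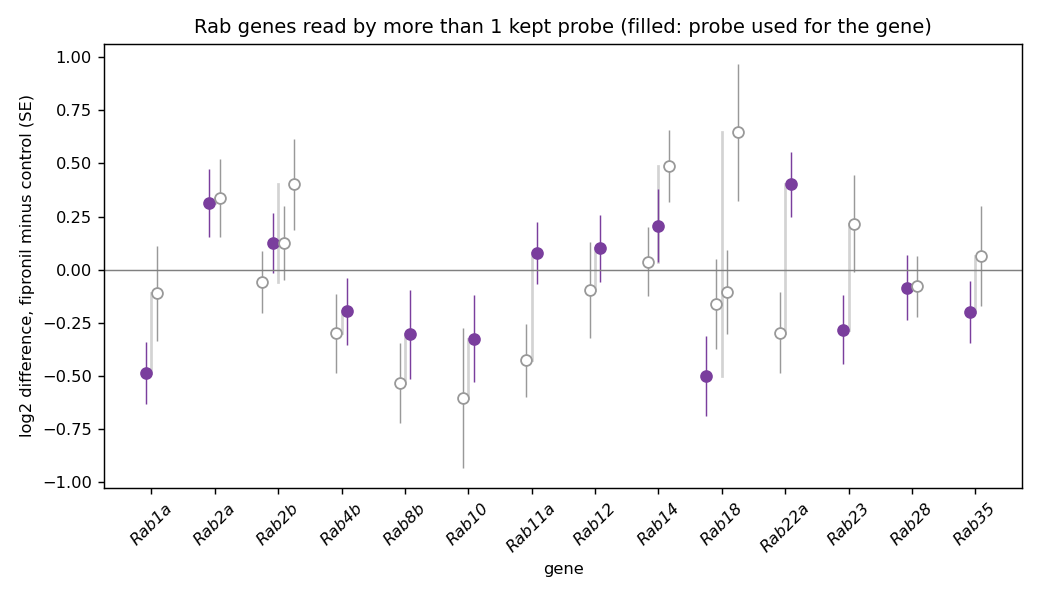
Log2 difference (fipronil minus control, with SE from a limma fit across all probes) of each probe well above background on at least 6 arrays, for the 14 Rab genes with more than 1. Filled points are the probe used for the gene, and grey lines span the gene's range. Rab2a, Rab8b and Rab28 probes lie close together, and Rab18 and Rab22a probes lie on both sides of 0.

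The proteins that run the Rab cycle were taken from 5 lists with 182 genes in all given here, of which 168 were on the array and 134 were tested. Of the 134, 4 rose and 1 fell, against 2.24% and 2.77% of all genes, and 28 (20.9%) had an unadjusted p under 0.05, against 25.03% of all genes. The median difference was 0.039. On slide 1, 0 passed in limma and 26 (19.4%) had an unadjusted p under 0.05, against 19.04% of all genes. Of the 10 tested genes for prenylation, escort and extraction given here, 0 passed in limma, and 4 had an unadjusted p under 0.05.

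Effectors and tethers, with 40 tested members, held these 4 rises. Osbpl1a, a lipid transfer protein bound by Rab7, rose by 0.79 ± 0.15 (SE) with an adjusted p of 0.0183 in limma, and differed by 0.95 on slide 1. It passed in each of the 12 fits that left out 1 array. Rab11fip1, an adaptor of Rab11 on recycling endosomes, rose by 0.87 (adjusted p 0.0400 in limma), but differed by -0.020 on slide 1. Myo7a, a myosin linked to Rab27a in pigment granules, rose by 0.63 (adjusted p 0.0203) and differed by 0.51 on slide 1. With its probes averaged the difference was 0.36 (adjusted p 0.323). Sytl4, a Rab27 effector on secretory granules, rose by 0.56 (adjusted p 0.0449), and differed by 0.33 on slide 1. Sytl4 passed in 3 of 12 fits that left out 1 array, and its adjusted p was 0.0538 with quantile normalization, 0.103 with median scaling, 0.0575 with normexp and quantile, and 0.0537 in the deposited table. Rab11fip1 and Exoc2, a gene of the next group, each passed in 2 of 12 such fits and Myo7a in 9. With normexp and quantile normalization the differences were smaller, at 0.42 for Osbpl1a, 0.57 for Rab11fip1, 0.32 for Myo7a and 0.28 for Sytl4. These adjusted p-values are from limma over 12 arrays.

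Of 19 tested subunits of the HOPS, CORVET, exocyst and retromer complexes, 1 passed. Exoc2, a subunit of the exocyst that tethers vesicles to the plasma membrane, fell by 0.45 ± 0.11 (SE; adjusted p 0.0359 in limma) and differed by -0.24 on slide 1. None of 35 exchange factors and none of 30 GTPase-activating proteins passed in limma. At an unadjusted p under 0.05 there were 4 and 5. Trappc4 and Rgp1, named by rule among the exchange factors, differed by -0.12 and -0.18, and Tbc1d20 and Tbc1d1 of the GTPase-activating proteins by 0.013 and 0.25. Lrrk2, the kinase that phosphorylates several Rabs, was well above background on 0 of 12 arrays and was not tested. Without fipronil replicate 8 the count over the lists was 16, and without fipronil replicate 7 it was 8. It was 2 when the array dropped was control 2, 3, 7 or 8, or fipronil 1 or 2. It was 3 with control 5 or fipronil 4 dropped, and 1, Osbpl1a, with control 6 or fipronil 3 dropped. Of all 13542 genes, 763 passed as higher and 1259 as lower without fipronil replicate 8, and 454 and 435 without fipronil replicate 7. The other fits that left out 1 array called 102 to 181 higher and 126 to 226 lower.

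**Figure D5:**
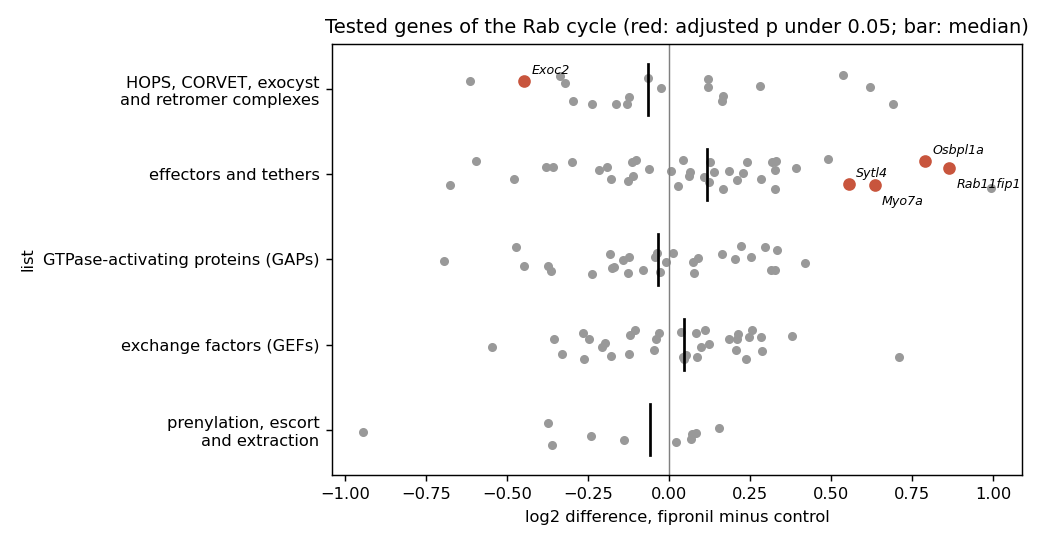
Log2 difference (fipronil minus control) over 12 arrays of each of the 134 tested genes of the Rab cycle, by list; points are spread vertically for legibility and black bars are the medians. The 5 genes in red passed the adjusted threshold: Osbpl1a, Rab11fip1, Myo7a and Sytl4 were higher and Exoc2 was lower.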

How the data were processed

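Total RNA of 12 N27 samples was hybridised to Agilent one-colour rat arrays, 6 per group. Intensities were extracted by the authors with Agilent Feature Extraction (10.7 per the submitters' processing notes, 10.1.1.1 per the file headers). Per the file headers, the flag columns used hold other values of 0 or 1. The deposited values by the authors are log2 with a floor of 1.5 and a column median of 2.63; each column matched its own array best (Spearman at least 0.994, other arrays lower), so scale and direction were clear, and they served as an alternative.

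Processed intensities, controls left out, were converted to log2 and scaled by subtracting each array's 75th percentile. Outlier spots (323 to 711 per array) were left out and 0 spots were saturated. Spots were averaged to probes, probes well above background on at least 6 of 12 arrays were kept, and the brightest probe stood for a gene. Fits used limma 3.58.1 in R 4.3.3 with version 1.17.8 of data.table, two-sided, adjusted by Benjamini-Hochberg over 13542 genes, and were tested on simulated data. Slide was inferred from the barcode in the name under which each array was submitted, as the sample titles give no slide. The slide 1 value came from a fit with slide as a block. Names came from RefSeq annotation of GRCr8 (21109 probes by accession, 6684 by symbol, 424 by synonym; 17381 kept their file name). The array files place probes on RGSC 3.4 (rn 4), so no coordinates are given.

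Replicate numbers 2, 3, 7 and 8 occur in both groups; same-numbered arrays lie on different slides and were not treated as pairs. The members and lists were chosen with earlier results of these data known. Named were all Rab genes past the threshold, the 5 smallest p-values in each role, a preset list of Rabs, and up to 4 genes past the threshold per cycle list or its 2 brightest; others were named after their values were seen, and a few items of the lists, named by the rule or shown by sequence, are not reported here. Alternatives were other scalings, backgrounds, filters and probe rules, slide or replicate number as a block, and each array left out. The number of arrays limits the precision.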

Additional observations from a re-analysis of the deposited data

Results flagged for a closer look

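Dixon's ratio was computed for 30 named genes in each of the 2 groups of 6 arrays, 60 sets in all, and marks a lone highest or lowest sample. About 1 set in 20 is marked by chance. Rab31 on control replicate 7 (slide 2) read 1.20, below the next lowest control at 1.36. Rab1b on fipronil replicate 4 (slide 3) read 1.3, below the next lowest fipronil array at 1.65.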

How the results depend on the processing

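Against 3 Rab genes called over 12 arrays, a normexp background scaled to the 75th percentile called 15 (9 higher, 6 lower), normexp with quantile normalization 5, no filter on dim probes 17 of 55, and slides 2 and 3 alone, added after the data were seen, 6; slide as a fixed or random block and the replicate block each called 0, and leaving out 1 array gave 1 to 6. On slide 1, normexp scaled to the 75th percentile called 1, Rab1a, and leaving out 1 array of that slide gave 0. Of the Rab cycle, 5 became 67 under that normexp setting (62 higher), 8 under normexp with quantile normalization, 31 without the filter, 31 on slides 2 and 3 alone, 0 with either slide block or the replicate block, and 1 to 16 with 1 array left out. Without the filter, 15088 of all 36181 genes were called higher and 1225 lower. That fit includes probes never well above background, which nearly all ran higher in fipronil arrays, as given above. Slides 2 and 3 alone called 22.5% of all genes, and leaving out 1 array called 102 to 763 higher and 126 to 1259 lower. Normexp with quantile normalization called 485 higher and 527 lower. Over all genes the split of 303 higher and 375 lower became 150 and 435 with median scaling, which moved the median of all genes by -0.10. It became 5116 and 1660 with normexp scaled to the 75th percentile, which moved that median by 0.25. Relative to the median of all genes, the Rab median was 0.083 under both the main and the median scaling and -0.17 under that normexp setting. Rab6b and Rab31 stayed above and Rab1a below the median of all genes under all 5 other scalings, but by varying amounts. The distances ran from 0.37 to 0.80 for Rab6b, from 0.14 to 0.61 for Rab31 and from -0.90 to -0.37 for Rab1a. These 3 genes were picked for passing in the main fit to the same arrays, so a kept sign is little support.

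The median over all Rabs was -0.095 with median scaling, 0.10 without the filter and -0.063 with probes above background on all arrays. The endosomal and lysosomal median was -0.093 with median scaling, 0.098 without the filter and -0.091 with probes averaged, and the secretory median was -0.15 with slide as a fixed block. The median of the others was -0.19 with median scaling, -0.0052 with normexp and quantile, 0.077 without the filter, 0.099 and 0.069 with slide as a fixed and random block, and -0.0038 with the replicate block; leaving out 1 array gave -0.095 to -0.00071.

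Of the 40 tested Rab genes, 30 kept their direction with slide as a fixed block. Among the genes named by rule, directions reversed with that block for Rab2a (-0.10), Rab8a (-0.15), Rab9a (-0.36), Rab11a (-0.061), Rab11b (0.0072), Rab11fip1 (-0.020), Rgp1 (0.14), Tbc1d1 (-0.055) and Trappc4 (0.37); with the random block for Rab9a (-0.076) and Trappc4 (0.034). The replicate block reversed Rab5c (0.053), Rab9a (-0.026) and Trappc4 (0.028). Normexp scaled to the 75th percentile reversed Rab5c (0.076), Rab11a (-0.016), Rab11b (0.19), Rab30 (0.66) and Tbc1d20 (-0.20). Median scaling, by its uniform shift of -0.10, reversed Rab9a (-0.044), Rab11a (-0.023) and Tbc1d20 (-0.088), and averaging probes Rab11a (-0.17) and Tbc1d1 (-0.022). With 1 array left out, Rab9a ran from -0.021 to 0.13 and Tbc1d20 from -0.013 to 0.041. The causes of the other reversals were not tested. Deviations of arrays with the same replicate number had correlations of 0.43, 0.075, -0.11 and -0.31 across genes, and the replicate block called 0 of all 13542 genes.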
